A study of Mus musculus with 12 samples.

Results

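The gene set followed here consists of LXR targets and sterol exporters in mouse liver. It was drawn up as 9 named genes, and 8 of them were measured, out of 22180 genes measured in all. A member was taken through probe sets whose platform annotation gives 1 gene symbol equal to its name, with the highest mean deciding where there were several, and each of the 8 members had exactly 1 such probe set. They are the receptor gene Nr1h3 (probe set 17388177), the exporter genes Abcg5 (17347729), Abcg8 (17340099), Abcg1 (17335770) and Abca1 (17425301), the phospholipid genes Pltp (17394297) and Lpcat3 (17462905), and the lipoprotein receptor gene Scarb1 (17452957). The ninth, Nr1h2, which encodes LXR beta, had no such probe set and is not analysed here. All 8 had a mean over the 12 arrays above the 30th percentile of gene means, a log2 value of 3.04.

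Total RNA of whole livers from male mice was read on single-colour Affymetrix arrays, 3 per group, and the values are log2 expression after RMA, the robust multi-array average. The 4 groups were Lats2-CKO mice on a high-cholesterol diet (HCD), wild-type mice on HCD, Lats2-CKO mice on a normal diet (ND), and wild-type mice on ND. Feeding started at an age of 8 weeks and lasted 9 weeks, with a Paigen diet of 1.25% cholesterol as HCD and a chow without cholesterol as ND. Paigen diets as a class also carry cholate and added fat, so cholesterol need not be the only difference between the feeds. The Lats2 protein is a kinase of the Hippo pathway. The line is called a CKO in some labels and a KO in others. The sources used here do not give its deleted exons, its Cre driver or the cells in which it acts. The comparisons ask how the diet and the genotype each changed liver expression, and whether the diet difference depended on genotype.

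Liver X receptors are nuclear receptors that bind oxidised cholesterol and, as heterodimers with RXR, sit on direct repeats of a short hexamer spaced by 4 bases (DR4). Their activation is known to raise genes that move cholesterol out of cells and into bile, to raise fatty acid synthesis, and to remodel the fatty acids of membrane phospholipids. In hepatocytes ABCG5 and ABCG8 work as an obligate heterodimer that pumps sterols into bile, ABCA1 loads cholesterol and phospholipid onto lipid-poor apolipoprotein A-I, and ABCG1, best known from macrophages, passes cholesterol on to HDL. The sterol sensor that works in the opposite direction is SREBP2, which drives cholesterol synthesis when cells are short of sterol.

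Promoter sequence is shown for the exporters whose windows hold a searched motif. Of the 8 members, 6 had promoter windows in the RefSeq table of GRCm38.p6, 8 windows in all. The DR4 letters NGGTNANNNNNGGTNA, searched on both strands in the 250 bases before each start, were in 0.621% of 32851 windows and in 1 member, Abca1. The letters AGATAA, a core bound by GATA factors, were in 9.99% of windows on either strand. Among the members' windows they were in that of Abcg5, with 2 matches, and in 1 Abcg8 window, with 3. The stretch below holds the 2 matches that both of these windows share. The other Abcg8 window, before a start at base 84676302, had 0 matches. No window of a member holds both the DR4 and the GATA letters. The Abcg5 start (minus strand, chromosome 17, base 84683011) and the Abcg8 start of the window with matches (plus strand, base 84683121) lie 110 bases apart. From them the genes are read away from each other. The stretch between them is shown because it lies directly upstream of both these starts, at chr17:84683012-84683120 on the plus strand, with AGATAA read on the minus strand in capitals. The Abca1 stretch is shown because it holds the DR4 match, at chr4:53159896-53160015 on the minus strand, upstream of the start at base 53159895, with the DR4 letters as read on the opposite strand in capitals. A match is a run of letters and not a measured site, and windows with no match say nothing about binding elsewhere.
Between Abcg5 and Abcg8: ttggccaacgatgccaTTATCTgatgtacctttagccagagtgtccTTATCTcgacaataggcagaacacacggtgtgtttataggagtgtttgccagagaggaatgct
Abca1, before its start: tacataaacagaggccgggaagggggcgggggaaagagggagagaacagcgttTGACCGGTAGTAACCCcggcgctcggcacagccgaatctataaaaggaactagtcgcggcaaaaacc

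For most members 1 array stood apart from its group, and it touches most results below. For 6 of the 8 members (75%) array 3 of wild-type ND lay nearer to the wild-type HCD mean than to the mean of the other 2 wild-type ND arrays, and this held for 61.99% of all genes. The HCD mean holds 3 arrays and the other mean 2, which favours the HCD mean for unchanged genes. No other array was measured this way. Over all genes the arrays of wild-type ND correlated at 0.9805 to 0.9923, and those of wild-type HCD at 0.9804 to 0.9865. Because of the members' values, array 3 of this ND group is called array 3 labelled wild-type ND. Member results that it changes are given with it and without it. The arrays also fell into sets by their median. Arrays 1 and 2 of both ND groups and array 1 of both HCD groups had medians of 3.48 to 3.49, and the others had 3.42 to 3.43. This is called the higher and the lower set, since no label gives a batch. Array 3 labelled wild-type ND is thus in the lower set with arrays 2 and 3 of wild-type HCD, while the other wild-type ND arrays are in the higher set. Lats2 itself was between 4.37 and 4.99 on the 6 Lats2-CKO arrays and between 5.12 and 5.97 on the 6 wild-type arrays, without overlap, and its genotype difference averaged over diets was -0.72 ± 0.16 (adjusted p = 0.486 by limma). Whether its probes lie in the deleted part is not given, so its level checks the labels only in part. Hepatocyte markers averaged 12.35 to 12.47 on the HCD arrays. On array 3 labelled wild-type ND they averaged 12.36, and on the other ND arrays 12.54 to 12.61.

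Abcg5 rose on HCD when both genotypes were averaged, and Abcg8, the other part of the heterodimer, was high and low on the same arrays. Abcg5 stood at 10.41, 10.37 and 10.44 in Lats2-CKO HCD livers, against 8.85, 8.21 and 8.54 in Lats2-CKO ND livers. In wild type it stood at 10.70, 10.37 and 10.38 on HCD, against 8.60, 8.36 and 10.45 on ND. All 6 HCD arrays and array 3 labelled wild-type ND were at 10.37 or above and the 5 remaining ND arrays at 8.85 or below, so that the groups were apart in Lats2-CKO and overlapped in wild type through that 1 array. Values of whole liver cannot tell a change in the number of cells of a type from a change in RNA per cell.

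Its partner Abcg8 read 9.10, 9.39 and 9.60 in Lats2-CKO HCD livers, against 7.94, 7.32 and 7.93 in Lats2-CKO ND livers. Wild-type livers read 9.43, 9.58 and 9.53 on HCD, against 7.59, 7.02 and 9.69 on ND. The same array was again the only high one among the ND arrays, and it was the highest of all 12.

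On 12 arrays the log2 difference of Abcg5, HCD minus ND averaged over both genotypes, was 1.61 ± 0.30 (SE, adjusted p = 0.0403 by limma), which is 3.05-fold, and it was the member that rose past the threshold. Within Lats2-CKO it was 1.88 ± 0.42 (adjusted p = 0.0879) and within wild type 1.34 ± 0.42 (adjusted p = 0.336). The averaged call was lost when any of 10 arrays was left out (adjusted p = 0.0615 to 0.114), which is every array except array 3 of wild-type HCD and array 3 labelled wild-type ND, and also with the array set as a block (adjusted p = 0.079). The difference itself stayed between 1.42 and 1.99 in all settings. With array 3 labelled wild-type ND left out, Abcg5 differed by 1.88 ± 0.16 in Lats2-CKO (adjusted p = 0.000656) and by 2.0 ± 0.18 in wild type (adjusted p = 0.000962). The spread is shared by all groups in the fit, so removing this wild-type array also narrows the error in Lats2-CKO.

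Abcg8 differed by 1.52 ± 0.37 averaged over genotypes (adjusted p = 0.0689 by limma). It differed by 1.63 ± 0.52 in Lats2-CKO (adjusted p = 0.193) and by 1.41 ± 0.52 in wild type (adjusted p = 0.386). Leaving that array out gave differences of 1.92 ± 0.15 averaged (adjusted p = 0.000168), 1.63 ± 0.20 in Lats2-CKO (adjusted p = 0.00408) and 2.21 ± 0.23 in wild type (adjusted p = 0.00235). Inside the array sets, Abcg5 differed by 1.89 and 1.87 in Lats2-CKO, in the higher and the lower set. In wild type it differed by 2.21 in the higher set and by -0.08 in the lower, where array 3 labelled wild-type ND is the only ND array.

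**Figure D1:**
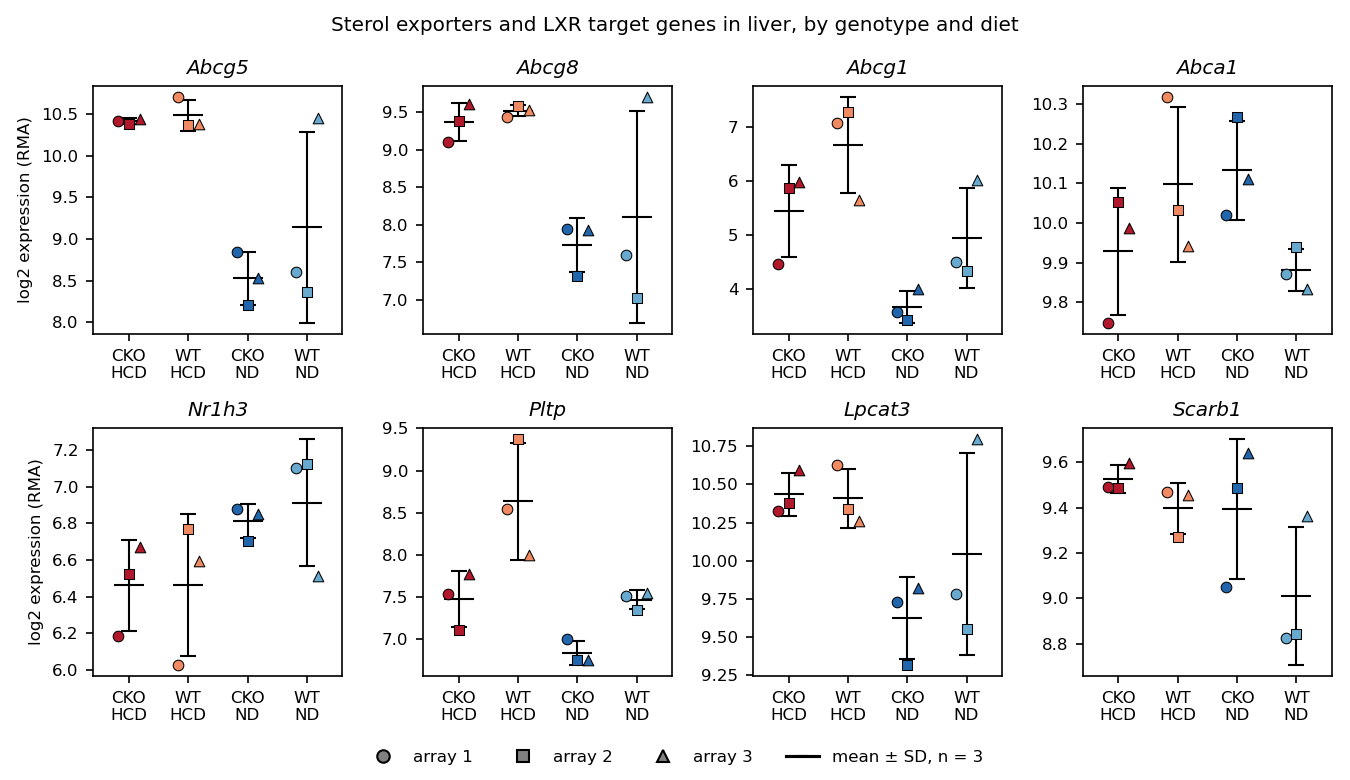
Log2 expression of the 8 members, one panel per gene, in the 4 groups from left to right Lats2-CKO HCD, wild-type HCD, Lats2-CKO ND and wild-type ND, with a point per array and the bar at the mean ± SD. Abcg5 and Abcg8 sit above 9 on all HCD arrays and below 9 on 5 of the 6 ND arrays, with array 3 labelled wild-type ND as the exception, while Abca1 stays between 9.75 and 10.32 throughout.

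The Abcg5 group means were 10.41 ± 0.03 in Lats2-CKO HCD, 10.48 ± 0.19 in wild-type HCD, 8.53 ± 0.32 in Lats2-CKO ND and 9.14 ± 1.14 in wild-type ND (SD, n = 3 each). For Abcg8 they were 9.36 ± 0.25, 9.52 ± 0.08, 7.73 ± 0.36 and 8.10 ± 1.41 in the same order of groups. Both genes had their highest mean in wild-type HCD, and the genotypes overlapped inside each diet. Which ND group was lowest turned on array 3 labelled wild-type ND, since the wild-type ND mean without it was 8.48 for Abcg5 and 7.31 for Abcg8.

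Abcg1, the exporter best known from macrophages, varied within most groups. It read 4.46, 5.88 and 5.99 in Lats2-CKO HCD livers, against 3.57, 3.42 and 3.99 in Lats2-CKO ND livers. In wild type it read 7.08, 7.28 and 5.65 on HCD, against 4.50, 4.33 and 6.01 on ND. Every Lats2-CKO HCD array was above every Lats2-CKO ND array, and in wild type the groups overlapped at array 3 of each diet. The differences were 1.78 ± 0.55 in Lats2-CKO (adjusted p = 0.185 by limma), 1.72 ± 0.55 in wild type (adjusted p = 0.338) and 1.75 ± 0.39 averaged (adjusted p = 0.0574). On the other 11 arrays the averaged difference was 2.02 ± 0.35 (adjusted p = 0.00805), and within each genotype the p stayed above the threshold, at 0.0884 in Lats2-CKO and 0.0564 in wild type. In wild type the difference was 2.66 in the higher array set and 0.45 in the lower.

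Abca1, whose promoter window holds the DR4 letters, showed no diet difference of that size. It read 9.75, 10.05 and 9.99 in Lats2-CKO HCD livers, against 10.02, 10.27 and 10.11 in Lats2-CKO ND livers. Wild-type livers had 10.32, 10.03 and 9.94 on HCD, against 9.87, 9.94 and 9.83 on ND. The Lats2-CKO groups overlapped, while each wild-type HCD array was above each wild-type ND array. The averaged difference was 0.01 ± 0.09, with a 95% interval of -0.18 to 0.19 (adjusted p = 0.977 by limma).

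Nr1h3, which encodes LXR alpha, the liver's main oxysterol receptor, was lower on HCD by a difference that did not pass the threshold. It read 6.19, 6.53 and 6.67 in Lats2-CKO HCD livers, against 6.88, 6.70 and 6.85 in Lats2-CKO ND livers. The wild-type readings were 6.03, 6.77 and 6.59 on HCD, against 7.10, 7.13 and 6.51 on ND. The Lats2-CKO groups did not overlap, and the wild-type groups overlapped through array 3 labelled wild-type ND. The averaged difference was -0.40 ± 0.15 (adjusted p = 0.2 by limma), and -0.50 ± 0.14 without that array (adjusted p = 0.0582). It was -0.85 in the higher array set and -0.04 in the lower, and it passed the threshold in 1 of the 22 settings tried.

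Pltp encodes the phospholipid transfer protein of plasma, which moves phospholipid between lipoproteins. It read 7.53, 7.11 and 7.77 in Lats2-CKO HCD livers, against 7.0, 6.76 and 6.76 in Lats2-CKO ND livers. Wild-type livers had 8.54, 9.37 and 8.00 on HCD, against 7.51, 7.34 and 7.55 on ND. Both diet pairs were apart, and Pltp, like Abca1, read on array 3 labelled wild-type ND much as on the other wild-type ND arrays. The difference was 0.63 ± 0.28 in Lats2-CKO (adjusted p = 0.364 by limma), 1.17 ± 0.28 in wild type (adjusted p = 0.307) and 0.90 ± 0.20 averaged (adjusted p = 0.0575). Without array 3 labelled wild-type ND the averaged difference, 0.92 ± 0.22, passed (adjusted p = 0.0348). The wild-type difference was 1.11 in the higher array set and 1.13 in the lower. Group means were 7.47 ± 0.33 in Lats2-CKO HCD, 8.64 ± 0.69 in wild-type HCD, 6.84 ± 0.14 in Lats2-CKO ND and 7.47 ± 0.11 in wild-type ND (SD, n = 3 each), so that Lats2-CKO HCD and wild-type ND lay together in the middle.

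Lpcat3 encodes the acyltransferase that puts polyunsaturated fatty acids into phosphatidylcholine. It read 10.33, 10.38 and 10.60 in Lats2-CKO HCD livers, against 9.73, 9.32 and 9.82 in Lats2-CKO ND livers. The wild-type readings were 10.63, 10.34 and 10.26 on HCD, against 9.78, 9.55 and 10.80 on ND. The Lats2-CKO groups were apart, and array 3 labelled wild-type ND was the highest of all 12. The averaged difference was 0.59 ± 0.19 (adjusted p = 0.145 by limma), and 0.78 ± 0.12 without that array (adjusted p = 0.0044).

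Scarb1 encodes SR-BI, the receptor that takes up cholesteryl ester from HDL. It read 9.49, 9.49 and 9.60 in Lats2-CKO HCD livers, against 9.05, 9.49 and 9.64 in Lats2-CKO ND livers. In wild type it read 9.47, 9.27 and 9.45 on HCD, against 8.83, 8.84 and 9.36 on ND. Both diet pairs overlapped, and the averaged difference was 0.26 ± 0.12 (adjusted p = 0.293 by limma), or 0.35 ± 0.11 without array 3 labelled wild-type ND (adjusted p = 0.0789).

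As a set, 0 of the 8 members passed the threshold for diet in Lats2-CKO on 12 arrays by limma, where 0.271% of all genes did, and 5 had an unadjusted p under 0.05, as 13.4% of genes had. In 5 members every HCD array was above every ND array, which held for 8.98% of genes, and in Nr1h3 every HCD array was below, which held for 10.5%. In wild type 0 of 8 passed, where 0% of genes did, and 5 had an unadjusted p under 0.05, as 10.6% of genes had. Abca1 and Pltp were above without overlap there, as 4.97% of genes were. Averaged over genotypes 1 of 8 passed, Abcg5, against 1.24% of genes. The median difference of the 8 was 0.74, and that of all genes was -0.02.

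Without array 3 labelled wild-type ND, 3 of 8 passed in Lats2-CKO (Abcg5, Abcg8 and Lpcat3; 2.11% of genes), 2 of 8 in wild type (Abcg5 and Abcg8; 2.33% of genes) and 5 of 8 averaged over genotypes (these with Abcg1 and Pltp; 7.24% of genes). In wild type 7 members were then above without overlap, as 14.7% of genes were, and Nr1h3 was below, as 21.6% of genes were. The removal leaves 2 wild-type ND arrays, and it was made because of the values on that array, so these counts describe the 11 arrays and are no independent evidence.

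**Figure D2:**
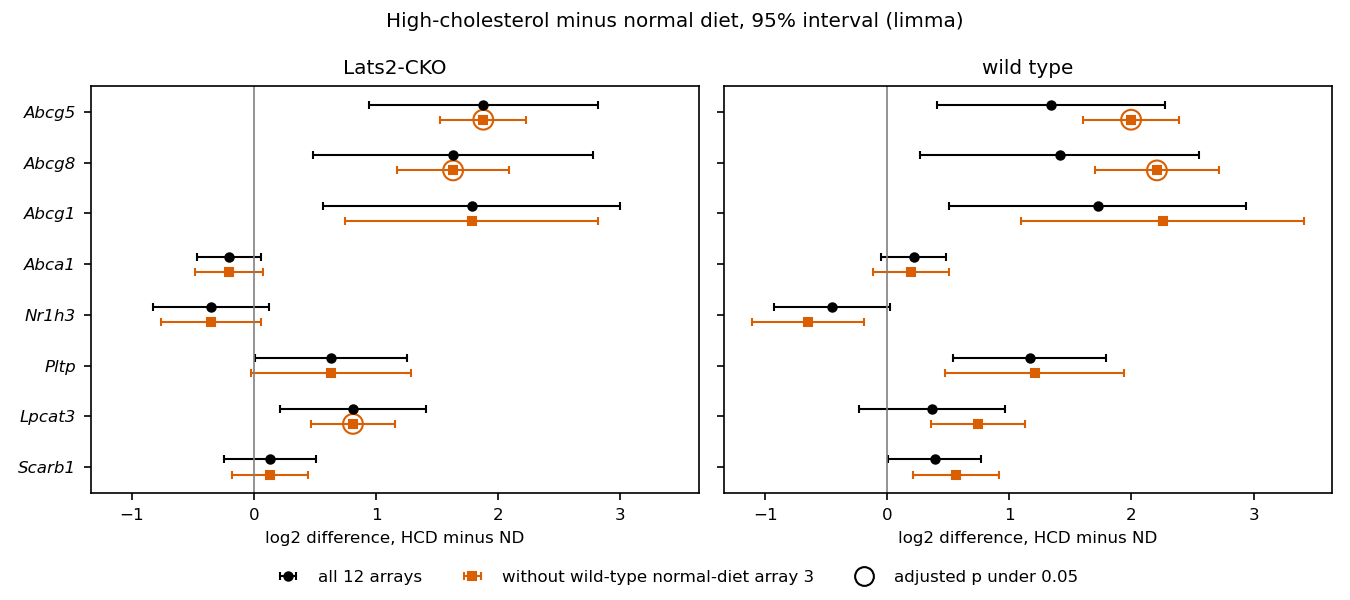
Log2 difference of each member, HCD minus ND, with 95% intervals from limma, in Lats2-CKO (left) and wild type (right), on all 12 arrays (black circles) and without array 3 labelled wild-type ND (orange squares). Ringed points passed an adjusted p of 0.05. No black point is ringed, while the orange points of Abcg5 and Abcg8 are ringed in both genotypes and that of Lpcat3 in Lats2-CKO.

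Between genotypes no member passed the threshold on either diet. Pltp was the member with the smallest unadjusted p on HCD. Its 3 Lats2-CKO HCD arrays (7.11 to 7.77) lay below its 3 wild-type HCD arrays (8.00 to 9.37), with a difference of -1.16 ± 0.28 (adjusted p = 1 by limma, unadjusted p = 0.00176). On ND its Lats2-CKO arrays (6.76 to 7.0) again lay below the wild-type ones (7.34 to 7.55), with a difference of -0.63 ± 0.28 (adjusted p = 0.551). The HCD difference was -1.01 in the higher array set and -1.24 in the lower, and the ND difference was -0.55 and -0.80 in the same order. The values -1.01 and -0.80 each compare 1 array with 1 array. For -0.80 the wild-type array is array 3 labelled wild-type ND. Averaged over diets the Pltp difference was -0.90 ± 0.20 (adjusted p = 0.492 by limma), and over all settings the adjusted p ran from 0.0536 to 0.838.

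Abcg1 differed in the same direction. Its Lats2-CKO arrays were at 4.46 to 5.99 on HCD, against 5.65 to 7.28 in wild type, and the difference was -1.23 ± 0.55 (adjusted p = 1 by limma). On ND they were at 3.42 to 3.99, against 4.33 to 6.01 in wild type, a difference of -1.29 ± 0.55 (adjusted p = 0.52), or -0.75 ± 0.52 without array 3 labelled wild-type ND. Within the array sets the HCD difference was -2.61 and -0.53, and the ND difference -0.92 and -2.03, higher set first. The values -2.61 and -2.03 each compare 1 array with 1 array. For -2.03 the wild-type array is array 3 labelled wild-type ND.

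On HCD the genotype differences of Abcg5 and Abcg8 were small against their errors. Abcg8 differed there by -0.15 ± 0.52. Abca1 differed by -0.17 ± 0.12, more than its error, and its groups overlapped (unadjusted p = 0.191 by limma). Abcg5 differed by -0.07 ± 0.42, with an interval of -1.01 to 0.86, which narrows to -0.42 to 0.28 without array 3 labelled wild-type ND. On ND it differed by -0.61 ± 0.42, and by 0.05 ± 0.18 without that array. Abcg8 on ND likewise differed by -0.37 ± 0.52, and by 0.42 ± 0.23 without it (adjusted p = 0.628 by limma). Abca1 was higher on all 3 Lats2-CKO ND arrays than on the wild-type ND arrays, by 0.25 ± 0.12 (adjusted p = 0.588 by limma), or 0.23 ± 0.14 without that array. Scarb1 differed by 0.13 ± 0.17 on HCD, without overlap, and by 0.38 ± 0.17 on ND, with an overlap that came from array 3 labelled wild-type ND alone. With that array left out its ND difference was 0.56 ± 0.16, without overlap (adjusted p = 0.289 by limma, unadjusted p = 0.00512).

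On HCD 0 of 8 members passed by limma, where 0% of genes did, and 2 had an unadjusted p under 0.05, as 2.93% of genes had. Pltp was below without overlap, as 3.37% of genes were, and Scarb1 above, as 4.07% were. On ND 0 of 8 passed, where 0.0135% of genes did, and 3 had an unadjusted p under 0.05, as 8.99% of genes had. Abcg1 and Pltp were below without overlap there, as 7.36% of genes were, and Abca1 above, as 5.96% were. Averaged over diets 0 of 8 passed, where 0.00451% of genes did, and Pltp and Abcg1 were the 2 members with an unadjusted p under 0.05, as 5.97% of genes had. Without array 3 labelled wild-type ND, 0 of 8 passed in each of these comparisons by limma, where 0% of genes did on HCD, 0.0180% on ND and 0.00902% averaged. An unadjusted p under 0.05 was then found for 2 members on HCD (3.05% of genes), 1 on ND (9.47% of genes) and 3 averaged (6.15% of genes). On ND 2 members were then above without overlap, Abca1 and Scarb1, as 11.5% of genes were, and 3 below, Abcg1, Pltp and Nr1h3, as 14.8% were. The diet and genotype comparisons share arrays, so their values are not independent of each other.

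**Figure D3:**
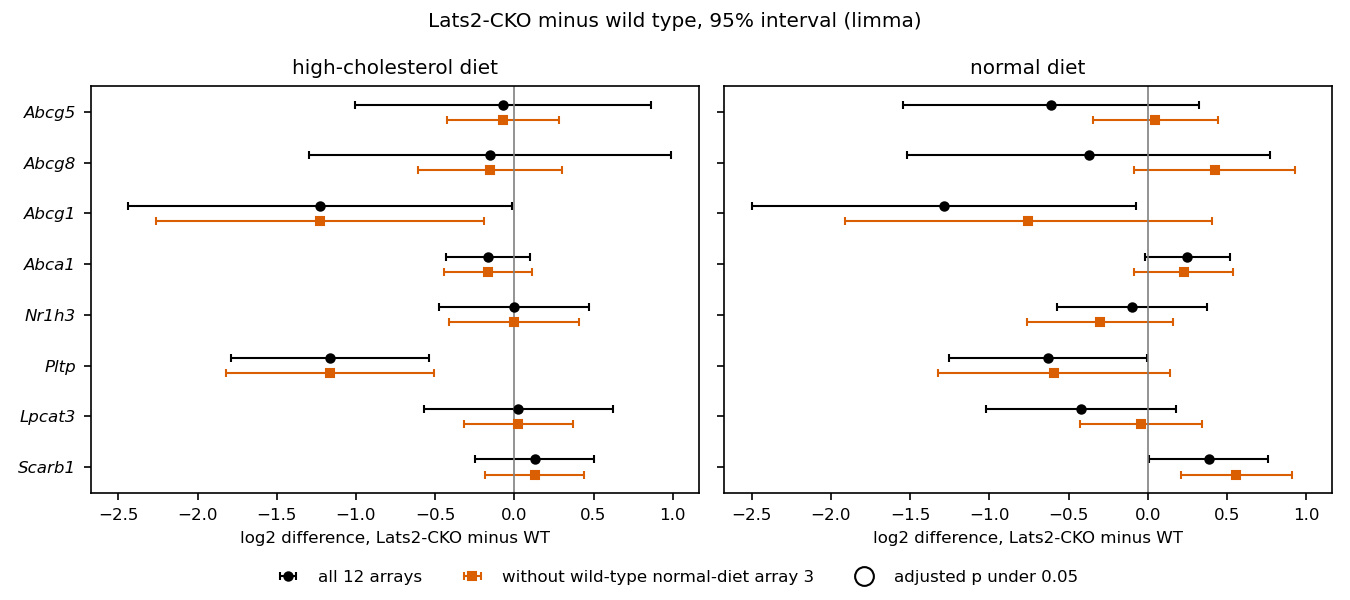
Log2 difference of each member, Lats2-CKO minus wild type, with 95% intervals from limma, on HCD (left) and ND (right), on all 12 arrays (black circles) and without array 3 labelled wild-type ND (orange squares). Pltp and Abcg1 lie to the left of 0 on both diets, and no point is ringed, since none passed an adjusted p of 0.05.

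Whether the diet difference depended on genotype was tested as an interaction, the diet difference in Lats2-CKO minus that in wild type. Again 0 of 8 members passed by limma, where 0.00451% of genes did, and 1 had an unadjusted p under 0.05, as 5.62% of genes had. That was Abca1, at -0.42 ± 0.17, with an interval of -0.80 to -0.04 (adjusted p = 0.842, unadjusted p = 0.0321). Without array 3 labelled wild-type ND it was -0.40 ± 0.19, with an interval of -0.81 to 0.02 (adjusted p = 0.726, unadjusted p = 0.0613 by limma). On those 11 arrays 0 of 8 members passed, where 0.00902% of genes did, and 0 had an unadjusted p under 0.05, as 7.11% of genes had. Its diet difference was -0.20 ± 0.12 in Lats2-CKO and 0.22 ± 0.12 in wild type. The interaction of Abcg5 was 0.54, with an interval of -0.78 to 1.86, and without array 3 labelled wild-type ND it was -0.12, with an interval of -0.65 to 0.41. For Pltp it was -0.53, with an interval of -1.42 to 0.35, and -0.57 without that array. These intervals still hold differences as large as those of the diet itself for Abcg5 on 12 arrays, so equal responses in both genotypes are not shown.

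Macrophage markers moved with several of these values, though not on every array. The list holds 14 genes, all measured and none with a mean below the 30th percentile in any group. Their mean was 6.94 to 7.51 in Lats2-CKO HCD livers, 7.23 to 8.75 in wild-type HCD livers, 6.29 to 6.48 in Lats2-CKO ND livers and 6.93 to 7.21 in wild-type ND livers. For diet averaged over genotypes all 14 had a positive difference, with a median of 0.97, and 4 rose past the threshold. Over all genes 1.24% passed there. For genotype averaged over diets none of the 14 had a positive difference, with a median of -0.73, and 0 passed. Cd5l, a macrophage protein that is itself an LXR target, is on this list and on the list of other LXR targets.

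Abcg1 and Pltp were highest on the wild-type HCD arrays 1 and 2, where the macrophage markers averaged 8.20 and 8.75, and both had all 3 of their lowest arrays in Lats2-CKO ND, where those markers were lowest. Array 3 labelled wild-type ND went the other way for Abcg1. It read 6.01 there, above the Lats2-CKO HCD arrays (4.46 to 5.99), while the macrophage mean of 6.93 was below theirs (6.94 to 7.51). The part of the macrophage markers in the differences of Abcg1 and Pltp was not tested. Their part in the differences of Abcg5 was not tested either. Endothelial markers, 7 of 7 measured, averaged 7.02 to 7.33 on the Lats2-CKO HCD arrays and 7.56 to 7.67 on the wild-type HCD arrays, and 7.02 to 7.33 on the Lats2-CKO ND arrays and 7.60 to 7.70 on the wild-type ND arrays. None of the 7 had a positive difference for genotype averaged over diets, and their part in the genotype differences of Pltp and Abcg1 was not tested. B cell markers, 3 of 4 measured, averaged 5.15 on wild-type HCD array 2, where Pltp and Abcg1 were highest, and 3.02 to 3.53 on the other 11 arrays. All 3 had a positive difference for diet averaged over genotypes and none for genotype averaged over diets. Of the 7 stellate cell markers, all measured, none had a positive difference for genotype on HCD, with list means of 5.61 to 5.95 in Lats2-CKO and 5.72 to 6.28 in wild type. The part of B and stellate cell markers in the results was not tested. Adipoq, Lep and Plin1, which define adipocytes, and Cd3d and Cd4 of T cells were below the 30th percentile of gene means.

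**Figure D4:**
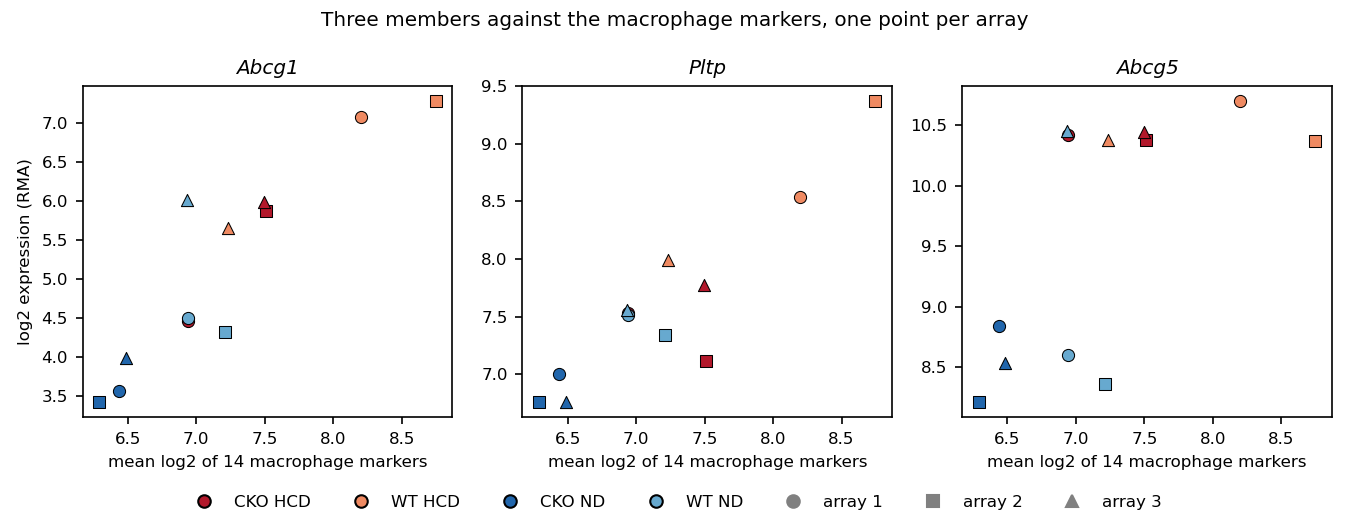
Log2 expression of Abcg1, Pltp and Abcg5 (left to right) against the mean log2 expression of 14 macrophage markers, one point per array, coloured by group and shaped by array number. Wild-type HCD arrays 1 and 2, at macrophage means of 8.20 and 8.75, are highest for Abcg1 and Pltp, and Abcg5 lies at 10.37 to 10.70 on all 6 HCD arrays.

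The genes around the members were read from 6 lists, by counts for diet averaged over genotypes, first on 12 arrays and then without array 3 labelled wild-type ND. Of all genes 1.24% passed the threshold on 12 arrays and 7.24% without that array, so counts rose over all genes too. Of 14 measured other LXR targets, 2 rose and none fell, with a median difference of 0.48. In sign, 11 of them had a positive difference and 3 a negative one. Smpdl3a, a secreted phosphodiesterase, rose by 0.51 ± 0.07 (adjusted p = 0.0241 by limma), and Cd5l by 1.78 ± 0.32 (adjusted p = 0.038). Scd1, the desaturase that makes oleate, differed by 0.77 ± 0.17 (adjusted p = 0.0522). Without that array 5 rose and 1 fell. Some genes were chosen after their values were seen. They are Srebf1, the regulator of fatty acid synthesis, Lpl, lipoprotein lipase, and Cyp7a1, whose enzyme controls the flow of cholesterol into bile acids. On 12 arrays they differed by 1.31 ± 0.33, 2.08 ± 0.47 and -2.45 ± 1.09, none past the threshold (adjusted p = 0.079, 0.0586 and 0.269 by limma). Without that array they differed by 1.47 ± 0.33, 2.49 ± 0.34 and -3.55 ± 0.59 in the same order. Cyp7a1 is a target of LXR in mouse and is also repressed through bile acid sensing, and it was the list's 1 fall. Fasn, fatty acid synthase, and Apoc2 are named because they too were negative on 12 arrays. They differed by -0.38 ± 0.18 and -0.09 ± 0.09 (adjusted p = 0.312 and 0.672 by limma).

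Partners and coregulators of LXR differed little. Of 14 measured, 0 passed on 12 arrays by limma, with a median of 0.05. Ep300, an acetyltransferase coactivator, was at 0.28 ± 0.10, Gps2, a subunit of the corepressor complex, at -0.33 ± 0.12, and Nrip1, a ligand-dependent corepressor, at 0.30 ± 0.16. On 11 arrays Ep300 rose and Gps2 fell.

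Of 17 measured genes of sterol and lipoprotein handling, 1 passed, Cyp7b1, the oxysterol hydroxylase of the alternative bile acid pathway, which fell by 1.84 ± 0.35 (adjusted p = 0.0407 by limma). Osbp, an oxysterol-binding carrier, was at -0.54 ± 0.12 (adjusted p = 0.0532) and Mttp, which loads lipid onto apolipoprotein B, at -0.35 ± 0.08 (adjusted p = 0.0534). The list's median was -0.06. On 11 arrays 1 rose and 4 fell.

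Of 12 other ABC transporters 0 passed on 12 arrays by limma, 11 had a positive difference and the median was 0.52. Abca8a, a relative of Abca1, was at 1.85 ± 0.40 (adjusted p = 0.0513), Abca2, a lysosomal relative, at 0.72 ± 0.22 (adjusted p = 0.129), and Abcb11, the bile salt export pump, at 0.64 ± 0.18 (adjusted p = 0.1). Abca8a read 8.65, 9.28 and 8.95 in Lats2-CKO HCD livers, against 7.0, 5.90 and 6.44 in Lats2-CKO ND livers, and 8.00, 9.19 and 9.04 in wild-type HCD livers, against 6.93, 6.71 and 9.07 in wild-type ND livers. As for Abcg5, array 3 labelled wild-type ND was among the high ones. Without it 5 of the 12 rose, with Abca8a at 2.22 ± 0.25.

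The relatives of Lpcat3, Pltp and Scarb1 held 12 measured genes, of which 1 rose. This was Lpcat2, an inflammatory-cell relative of Lpcat3, by 0.75 ± 0.14 (adjusted p = 0.0403 by limma), at 3.93 to 4.40 in Lats2-CKO HCD livers, against 3.09 to 3.30 in Lats2-CKO ND livers, and at 3.91 to 4.71 in wild-type HCD livers, against 3.78 to 3.88 in wild-type ND livers. Lbp, the lipopolysaccharide-binding relative of Pltp, was at 0.42 ± 0.11 (adjusted p = 0.0812), and Cd36, a fatty acid receptor related to Scarb1, at 1.08 ± 0.32 (adjusted p = 0.115). On 11 arrays 3 rose.

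SREBP2 targets were lower on HCD. Of 11 measured, 5 fell and 0 rose, with a median of -1.04. Sqle, squalene epoxidase, read 2.98, 2.85 and 2.79 in Lats2-CKO HCD livers, against 7.96, 8.70 and 8.32 in Lats2-CKO ND livers, and 2.81, 2.89 and 2.82 in wild-type HCD livers, against 7.97, 7.0 and 2.55 in wild-type ND livers. Every HCD array and array 3 labelled wild-type ND were below 3. Sqle differed by -4.23 ± 0.72 (adjusted p = 0.0334 by limma), Cyp51, lanosterol demethylase, by -2.39 ± 0.31 (adjusted p = 0.0192), Fdps, farnesyl diphosphate synthase, by -2.31 ± 0.45 (adjusted p = 0.0426), Lss, lanosterol synthase, by -1.56 ± 0.26 (adjusted p = 0.0322), and Dhcr7, which acts in the last steps to cholesterol, by -1.04 ± 0.18 (adjusted p = 0.0344). In Lats2-CKO alone Cyp51 fell by 3.15 ± 0.44 (adjusted p = 0.0278) and Dhcr7 by 1.5 ± 0.25 (adjusted p = 0.04). Without array 3 labelled wild-type ND, 8 of the 11 fell averaged over genotypes. These calls on 12 arrays were sensitive to single arrays and to the array sets, which hold 4 ND and 2 HCD arrays in the higher set and the reverse in the lower. Leaving out 1 array ended the call of Cyp51 for 3 of the 12 arrays (array 2 of wild-type ND, array 3 of Lats2-CKO ND and array 1 of Lats2-CKO HCD; adjusted p = 0.0536 to 0.0667). It ended that of Smpdl3a for 6 (arrays 1 and 2 of wild-type ND, 3 of Lats2-CKO ND, 2 of wild-type HCD, and 1 and 3 of Lats2-CKO HCD; adjusted p = 0.0533 to 0.0757). For Dhcr7 it was 7 arrays, for Cyp7b1 9, for Cd5l, Sqle, Lss and Lpcat2 10 each, and for Fdps 11, with adjusted p up to 0.121, and in none of them was it array 3 labelled wild-type ND. With the array set as a block the averaged calls of Cd5l, Cyp7b1, Fdps, Sqle, Lss, Dhcr7 and Lpcat2 were also lost, and that of Lpcat2 was lost too with this block and without array 3 labelled wild-type ND. In Lats2-CKO the call of Cyp51 ended without any 1 of 5 arrays. That of Dhcr7 was lost in 14 of 23 settings, which were 10 single arrays left out, the fit on only the groups compared, median centring, the replicate number as a block and the array set as a block.

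**Figure D5:**
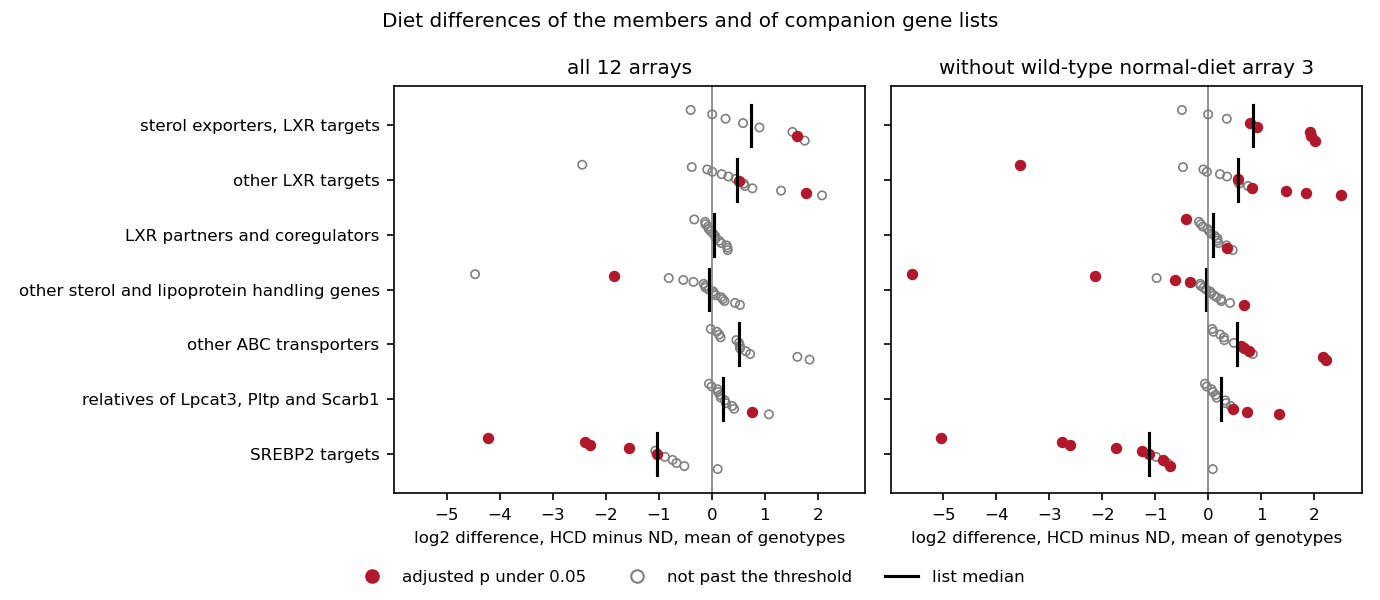
Log2 differences, HCD minus ND averaged over genotypes, of the 8 members (top row) and of the genes of 6 companion lists, on all 12 arrays (left) and without array 3 labelled wild-type ND (right), with each list's median as a black line and genes past an adjusted p of 0.05 filled in red. The members' median is 0.74 on 12 arrays and the SREBP2 targets' median is -1.04, with 5 of 11 filled on the left and 8 of 11 on the right.

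Likeness of pattern was measured as the root mean square difference of gene-centred log2 values over the 12 arrays, among 15525 genes with a mean above the 30th percentile, as a description. Nearest to Abcg5 were Abcg8 at 0.22, Hnmt, which methylates histamine, at 0.25, and Gm5524 at 0.32, where the root mean square of Abcg5 itself was 0.97. Nearest to Abcg8 were Hnmt at 0.21, Abcg5 at 0.22 and Cyp2j9, a cytochrome P450, at 0.31. Among the members Lpcat3 came next, at rank 77 from Abcg5 (0.56), and Abcg1 and Pltp stood at ranks 392 and 731. Nearest to Pltp were B4galt6, a galactosyltransferase, at 0.25, and the blood-cell genes Syk and Cd48, each at 0.28, where Pltp itself was at 0.73. Abca1 varied by only 0.16, and its nearest were Tpd52 at 0.05, Malat1 at 0.08 and Mtmr2 at 0.10. A gene that hardly varies lies near other such genes by this measure, and one that did not vary at all would be at 0.16 from Abca1. The 3 genes named lay closer than that.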

How the data were processed

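Total RNA of 12 livers was measured on Affymetrix arrays. The authors deposited log2 expression values per probe set after RMA, which the submitters' processing notes place in Partek 6.6. The log2 scale was taken from the range of the values (1.94 to 14.16), and the sources used here give neither the probe sets' genome build nor the RMA settings. RMA equalises arrays, so that a change shared by most genes would not show, and it compresses low values.

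Of 41345 probe sets, 23521 had 1 gene symbol, 1814 several and 16010 none, through the platform annotation and RefSeq (GRCm38.p6). The highest-mean probe set stood for each of 1082 genes with several. limma 3.58.1 (lmFit and eBayes, R 4.3.3) was fitted once over 12 arrays with 4 group means, and Benjamini-Hochberg adjustment ran over 22180 genes, with a threshold of 0.05. Errors of differences are SE from this fit and errors of levels are SD over 3 arrays. The labels number biological replicates, and p-values measure the spread between them. The fit was tested on simulated data with independent noise, no array sets and no outlying array. That test therefore does not cover those traits of these arrays.

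The 8 members, all companion and marker lists, and the array sets were chosen with earlier results of these data known. Companion genes named are those past the threshold in any comparison and up to 3 per list with the smallest unadjusted p for diet averaged over genotypes. For Abcg5, Abcg8, Abca1 and Pltp the 3 genes nearest in pattern are named. Alternatives were each array left out, the array set or the replicate number as a block, fits limited to the compared groups, array weights, a robust trended prior, removal of dim genes, averaged probe sets, median centring and repeated quantile normalisation. Replicate numbers were not taken to pair arrays, since the labels number replicates and state no pairing. The correlations do not settle this. Those of deviations for 18 same-numbered pairs across groups ran from 0.0024 to 0.1764, and 7 were over 0.1. Every array 1 is in the higher array set and every array 3 in the lower, so number and array set cannot be fully told apart.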

Additional observations from a re-analysis of the deposited data

Results flagged for a closer look

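Abca1 stood out because its mean diet differences had opposite signs in the genotypes, though neither stood clear of its spread (unadjusted p = 0.121 in Lats2-CKO and 0.102 in wild type by limma). The Lats2-CKO groups overlapped. In wild type the lowest HCD array, at 9.9419, was just above the highest ND array, at 9.9394. All 3 Lats2-CKO HCD arrays (9.75 to 10.05) were below the Lats2-CKO ND mean of 10.13, and all 3 wild-type HCD arrays (9.94 to 10.32) were above the wild-type ND mean of 9.88. The diet difference in Lats2-CKO minus that in wild type was -0.42 on the log2 scale. limma's test of this interaction gave an adjusted p of 0.842, or 0.726 without array 3 labelled wild-type ND, and it passed the threshold in 0 of 22 settings.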

How the results depend on the processing

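The number of members past the threshold for diet averaged over genotypes was 1 on 12 arrays. It was 2 with a trended and robust prior and with quantile normalisation, 4 with dim genes left out, 5 with array weights, 0 with the array set as a block, and 5 with that block and without array 3 labelled wild-type ND. For diet in Lats2-CKO, 0 on 12 arrays, it was 2 in a fit on only the groups compared, 1 with array weights, and 3 with the array set block without that array. For diet in wild type, also 0, it was 3 with that block without that array. Leaving out 1 array at a time gave 0 to 3 in Lats2-CKO, 0 to 2 in wild type and 0 to 5 averaged. With the replicate block the counts were 0, 0 and 1, and that block changed no member's call, while Dhcr7 lost its call in Lats2-CKO. All 18 same-numbered pairs correlated above 0 and 9 of 12 arrays correlated best with their own number. Every pair over 0.1 lay inside 1 array set. The number 2 pairs of an HCD with an ND array, which cross the array sets, correlated at 0.0024 to 0.0613. The parts of number and array set in these correlations were not tested. Genotype differences and the interaction gave 0 members in every setting. Among all genes, the count was 274 for diet averaged and ran from 6 to 1605 over the alternatives, 60 in Lats2-CKO (5 to 573), 0 in wild type (0 to 516), 3 for genotype on ND (1 to 17), 0 for genotype on HCD (0 to 22), 1 for genotype averaged (1 to 8) and 1 for the interaction (1 to 3). The causes were not tested. No called value changed sign. Of 1672 recomputed values, 42 that passed in neither setting did, the largest at 0.61 on 12 arrays. With 3 arrays per group, and signals of single probes not used here, differences near their error were not detectable.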
